A study of Rattus norvegicus with 12 samples.

Results

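Gene expression was compared between denervated and intact laryngeal muscle of the rat, with the question which transcripts change in the same way in the muscle that opens the vocal folds and in the muscles that close them. All 12 arrays of the study entered 1 model per gene, with injury (6 arrays) against control (6 arrays) as one term and the muscle as the other. A gene counts as shared here if it passed the limma test of the injury term (Benjamini-Hochberg adjusted p under 0.05 over all genes) and if all 6 injured arrays lay above, or all 6 below, the 6 controls. This held for 1426 of 14329 genes tested, which is 9.95%: 778 were higher after injury (5.43%) and 648 lower (4.52%). By the test alone 3422 genes (23.9%) were called, and by the separation alone 1446 (10.1%), of which 788 were higher (5.5%) and 658 lower (4.59%). The test called 12.1% of all genes higher and 11.8% lower, and counts for gene lists below are to be read beside these shares. The separation of the arrays is read from the same values as the test, so it describes these genes and adds no second test.

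The 4 groups of 3 arrays were posterior cricoarytenoid muscle (PCA, the abductor) and laryngeal adductor complex (AC) from control rats and from injured rats. All rats were males of the inbred F344 strain. Injured rats had the recurrent laryngeal nerve, which supplies these muscles, cut on one side with 1 cm of it taken out, and controls had the surgery but kept the nerve whole. Tissue was taken 1 week later, from 10 animals in each surgery group. The labels do not tie arrays to animals or say whether specimens were pooled, so what the p-values weigh is the variation from array to array, part of which may be technical. Values are log2 expression as deposited, differences are injury minus control on that scale with the SE from limma, and 1 unit is a 2-fold change.

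Skeletal muscle markers were high on every array: the mean of 9 of them (Ckm, Acta1, Des and others) lay between 12.43 and 12.80 in controls and between 11.86 and 12.65 in injured arrays. Genes of neighbouring tissue varied between specimens. Thyroid and parathyroid markers were high in PCA control 1, PCA injury 2 and AC injury 2 (mean of 10 genes 10.50, 10.28 and 8.77, against 6.25 to 7.35 elsewhere). Squamous epithelium markers were low in the 3 PCA controls (8.19, 10.79 and 6.70), against 11.36 to 12.40 on the other 9 arrays. Cartilage markers were highest in the same 3 PCA controls (9.39 to 10.07, against 8.17 to 9.15 on the other 9 arrays). So were adipocyte markers (8.30 to 8.66, against 7.22 to 7.78). Without the 3 thyroid-rich arrays 1077 genes passed higher and 960 lower, against 1731 and 1691 on all 12 arrays. Of the 1426 shared genes 241 no longer passed. With the squamous level of each array as a covariate 173 of them no longer passed. A fit of fewer arrays also loses calls for want of arrays, and in PCA the squamous level itself differed between injured and control arrays. Why a call was lost in either fit, here and below, was not tested. No shared gene changed the sign of its difference in either fit. In the fit of fewer arrays this follows from the separation itself and is no check. Because the tissue is a mixture, a fall can mean fewer cells of a type or less RNA per cell, and these cannot be told apart.

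A muscle fibre that loses its nerve stops confining acetylcholine receptors to the junction, and its fetal receptor subunits and embryonic contractile proteins return. Its myogenic transcription factors rise, its metabolism turns down and macrophages clear the degenerating nerve and debris. Myogenin and its relatives bind E-boxes, short DNA motifs near the start of receptor genes and other muscle genes.

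E-boxes were therefore searched in the 250 bases upstream of the transcription start, in RefSeq promoters of GRCr8. The sequences of 3 receptor subunit genes and of Myog itself are printed because these 4 genes were higher on every injured array of both muscles than on any control. They are Chrna1 (chr3:78877354-78877603, minus strand), Chrnd (chr9:95310066-95310315, plus strand), Chrng (chr9:95325734-95325983, plus strand) and Myog (chr13:48297226-48297475, plus strand), each 5′ to 3′ and ending at the base before the start. Capitals mark every CANNTG, which reads the same on both strands.
Chrna1: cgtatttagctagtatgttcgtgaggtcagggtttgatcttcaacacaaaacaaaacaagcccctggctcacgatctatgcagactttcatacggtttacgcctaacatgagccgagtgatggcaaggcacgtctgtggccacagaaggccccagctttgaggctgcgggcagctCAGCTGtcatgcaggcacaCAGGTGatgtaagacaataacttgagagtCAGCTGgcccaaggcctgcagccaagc
Chrnd: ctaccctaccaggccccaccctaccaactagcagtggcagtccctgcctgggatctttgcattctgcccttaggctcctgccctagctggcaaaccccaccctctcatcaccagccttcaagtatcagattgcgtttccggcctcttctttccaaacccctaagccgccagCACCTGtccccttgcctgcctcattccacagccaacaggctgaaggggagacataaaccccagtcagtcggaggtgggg
Chrng: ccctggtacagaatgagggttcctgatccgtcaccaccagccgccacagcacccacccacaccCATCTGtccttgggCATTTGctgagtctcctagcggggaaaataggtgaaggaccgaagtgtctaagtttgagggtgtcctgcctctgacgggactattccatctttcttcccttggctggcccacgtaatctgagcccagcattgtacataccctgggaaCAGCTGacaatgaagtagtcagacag
Myog: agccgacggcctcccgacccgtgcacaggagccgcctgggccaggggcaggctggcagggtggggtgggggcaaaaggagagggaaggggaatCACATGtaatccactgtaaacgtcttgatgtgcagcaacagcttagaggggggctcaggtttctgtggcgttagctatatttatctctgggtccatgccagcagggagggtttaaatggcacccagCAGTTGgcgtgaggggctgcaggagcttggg
Counted from the start site, Chrna1 holds the form CAGCTG at -75 and at -27 with CAGGTG between them at -56, and Chrng holds CAGCTG at -26. Chrnd has 1 match, CACCTG at -79. In Myog the matches are CACATG at -157 and CAGTTG at -31.

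The motif is common. CANNTG was found in 65.5% of all 33469 promoters in the table, in 60.7% of those of genes tested, in 56.9% of those of shared genes that rose and in 59.7% of those of shared genes that fell. Among 11 promoters of shared genes from the receptor, junction, embryonic isoform and myogenic lists, 10 held it. The narrower form CAGCTG, which is one of the CANNTG forms, was in 12% of all promoters, 16.3% of those of shared genes that rose, 14.6% of those that fell and 5 of these 11. The cyclic AMP response half-site TGACG, searched on both strands, was in 18.2% of all promoters and in 23.1% of those of genes tested. It was in 20.8% of those of shared genes that rose, in 28.5% of those that fell, and in 24 of 57 promoters (42.1%) of shared genes from the tricarboxylic acid cycle, respiratory chain and fatty acid lists below. TGANTCA, the motif of AP-1, was in 7.1% of promoters of shared genes that rose, 3.6% of those that fell and 5.52% of those tested. Promoters were matched for 1172 of the 1426 genes. These shares are a description, and a match is not evidence of binding.

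Of 5 acetylcholine receptor subunits 3 were higher on all injured arrays, in both muscles. Chrna1 encodes the subunit that binds acetylcholine. Its PCA controls lay at 8.96, 9.40 and 10.80 and its AC controls at 9.14, 8.99 and 9.19. Injured PCA arrays lay at 11.41, 11.54 and 12.09, and injured AC arrays at 12.16, 11.96 and 11.73. The lowest injured array thus stood 0.61 above the highest control, PCA control 3, which was also the highest control for the other subunits that rose. The difference was 2.40 ± 0.28 (5.28-fold, adjusted p = 0.000557).

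The fetal subunit Chrng, which gives way to Chrne in the adult junction, was at 6.66, 6.96 and 7.92 in PCA controls, at 7.28, 6.69 and 6.98 in AC controls, at 8.47, 8.34 and 8.95 in injured PCA and at 9.30, 8.87 and 8.95 in injured AC. All injured arrays were higher than all controls, by 1.73 ± 0.22 on average (adjusted p = 0.000704). Chrnd, a subunit of both the fetal and the adult receptor, rose by 1.89 ± 0.24 (adjusted p = 0.000751), with controls from 7.24 to 8.61 and injured arrays from 9.07 to 9.93. The adult subunit Chrne did not pass (0.04 ± 0.09, adjusted p = 0.805), and its arrays overlapped from 7.66 to 8.26 in controls and 7.87 to 8.17 after injury. Chrnb1 did not pass either (0.21 ± 0.15, adjusted p = 0.355). The 3 subunits that rose stand against 12.1% of all genes that did. In these 3 the AC difference (2.06 to 2.84) exceeded the PCA difference (1.41 to 1.96), but the test of that difference did not pass for any of them (adjusted p = 0.378 to 0.48).

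Of 11 measured organisers of the junction, 2 rose and were separated and 2 fell with overlapping arrays (36.4% past the test, against 23.9% of all genes). The median difference of the list was 0.04. Ncam1, an adhesion molecule spread over the surface of denervated fibres, lay between 8.64 and 9.63 in controls and between 10.49 and 10.87 after injury. Its groups were 0.86 apart, and the rise was 1.54 ± 0.15 (adjusted p = 0.000266), with 1.46 in PCA and 1.62 in AC. Musk, the kinase through which agrin clusters receptors, rose by 1.11 ± 0.15 from controls of 6.75 to 7.47. Dok7, the cytoplasmic activator of Musk (-0.34 ± 0.10, adjusted p = 0.0286), and Colq, the anchor of acetylcholinesterase (-0.27 ± 0.09, adjusted p = 0.0463), fell, and neither passed without the 3 thyroid-rich arrays or with the squamous covariate. Rapsn (0.15 ± 0.09), Lrp4 (0.08 ± 0.08) and Agrn (0.02 ± 0.08) did not pass.

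Myogenic factors rose unequally. Myog had PCA controls at 6.79, 6.93 and 7.57 and AC controls at 6.98, 6.25 and 7.24, against 8.15, 7.99 and 8.93 in injured PCA and 8.79, 8.74 and 8.85 in injured AC. The groups were 0.42 apart and the rise was 1.61 ± 0.22 (adjusted p = 0.000951). Myf5, a factor of activated satellite cells, rose by 0.86 ± 0.09, and Sox11, a developmental transcription factor, by 1.10 ± 0.13, both without overlap. Runx1, which is induced by denervation, also rose (0.80 ± 0.15, adjusted p = 0.00284), but its lowest injured array was 0.03 below its highest control. Myod1 (0.49 ± 0.17, adjusted p = 0.0543) and Myf6 (0.19 ± 0.18) did not pass, though Myod1 did when genes below the 25th percentile of level were left out. Over the 11 factors 5 rose and 0 fell, and the median difference was 0.21, against 0.00 over all genes.

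Embryonic and fusion genes were among the widest separated. Mymk, the membrane protein that lets myoblasts fuse, had the widest of all shared genes. It lay at 5.92, 6.17 and 6.81 in PCA controls and at 5.96, 5.60 and 6.78 in AC controls. After injury it reached 9.01, 8.60 and 9.47 in PCA and 9.65, 9.67 and 9.69 in AC. Injured and control arrays were 1.79 apart, and the rise was 3.14 ± 0.24 (8.83-fold, adjusted p = 7.18e-05).

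The embryonic myosin Myh3 moved from 8.05, 9.10 and 9.28 in PCA controls to 10.47, 10.71 and 10.93 after injury, and from 8.23, 7.81 and 8.70 to 10.56, 10.73 and 11.18 in AC. No array overlapped, and the injured arrays of both muscles lay at like levels. The rise was 2.23 ± 0.24 (adjusted p = 0.000454). Tnnt2, the troponin T of heart and of developing muscle, rose by 1.86 ± 0.14 (adjusted p = 6.18e-05), with controls from 7.07 to 7.79 and injured arrays from 8.82 to 9.56. Cdh2, the N-cadherin of myoblasts (1.01 ± 0.14), and Lrrn1 (0.80 ± 0.14) were separated too, while Csrp3 (0.65 ± 0.18) and Cdh15 (0.43 ± 0.13) rose with overlap. Csrp3 did not pass without the thyroid-rich arrays, nor Cdh15 with the squamous covariate. The cardiac actin Actc1 did not pass (0.01 ± 0.05). Of 10 embryonic and cardiac isoforms 7 rose, 5 of them without overlap, and the median was 0.73.

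**Figure D1:**
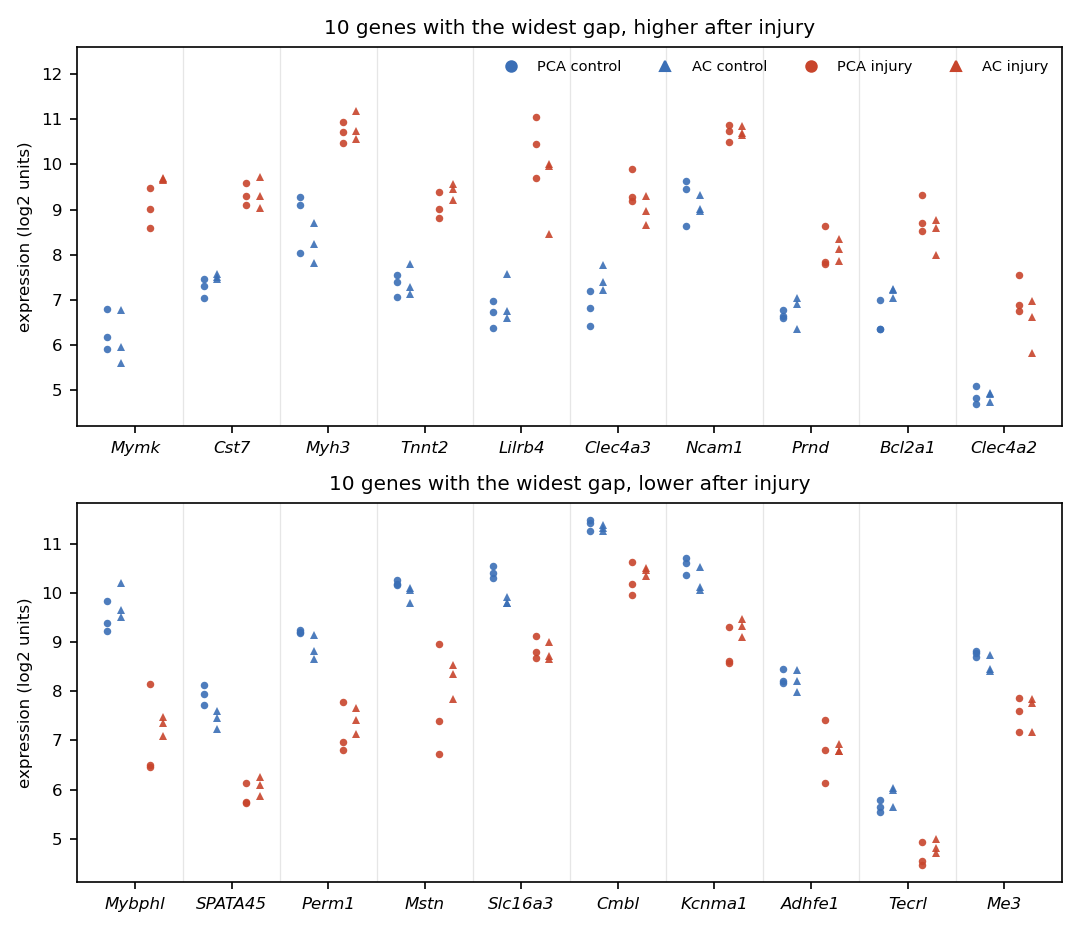
Expression (log2 units) on each array of the 10 shared genes with the widest gap between injured and control arrays, higher after injury (top) and lower after injury (bottom); circles are PCA and triangles AC, blue control and red injury. Mymk, with controls up to 6.81 and injured arrays from 8.60, is the widest above, and Mybphl, with controls from 9.23 and injured arrays up to 8.14, the widest below.

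Outside these lists the plot of the widest gaps holds Cst7, Prnd and Bcl2a1. Cst7, cystatin F, is a protease inhibitor of immune cells. It lay between 7.05 and 7.58 in controls and between 9.03 and 9.72 after injury, 1.45 apart, and rose by 1.96 ± 0.12 (adjusted p = 3e-05). Prnd, which encodes the prion-like protein doppel, rose by 1.39 ± 0.16, and Bcl2a1, a survival factor of leukocytes, by 1.78 on average.

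Among mature contractile genes the falls were large but less uniform. Mybphl, a myosin-binding protein, lay at 9.23, 9.39 and 9.83 in PCA controls and at 9.66, 10.21 and 9.51 in AC controls. After injury it lay at 6.50, 6.45 and 8.14 in PCA and at 7.08, 7.48 and 7.35 in AC. Controls and injured arrays were 1.09 apart, PCA injury 3 being the nearest, and the difference was -2.47 ± 0.26 (adjusted p = 0.000454). Mybph, its relative, went the other way without overlap (1.19 ± 0.16), from controls of 7.79 to 8.76 to injured arrays of 9.06 to 9.83.

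Myh13, the very fast myosin of extraocular and laryngeal muscle, had the largest fall of the shared genes (-2.75 ± 0.47, adjusted p = 0.00207). Its controls spanned 10.51 to 11.75, and its injured arrays lay at 6.55, 8.03 and 10.32 in PCA and at 8.48, 8.33 and 8.92 in AC. PCA injury 3 stood only 0.19 below the lowest control, while the other 5 injured arrays were below 9. The slow myosin Myh7 fell by 1.82 ± 0.33 on the log2 scale, and its PCA controls (10.58 to 11.38) were above its AC controls (9.35 to 9.65). The fast myosins Myh2 (-1.14 ± 0.26) and Myh4 (-0.73 ± 0.20) fell with overlapping arrays, and Myh1 did not pass (-0.34 ± 0.12, adjusted p = 0.0645). Of 8 heavy chains 5 fell and 1, Myh3, rose, and 3 fell without the thyroid-rich arrays. Myh4 was not among these 3. Because heavy chain genes resemble each other closely, their probes may cross-react, and single members are uncertain. Of 8 troponins, the fast Tnnc2 and Tnni2 fell, and Tnnt2 and the slow Tnni1 (0.67 ± 0.21) rose. Only Tnnt2 passed without the thyroid-rich arrays, and the call of Tnni1 was also lost when any of 8 single arrays was left out. Skeletal muscle markers as a list had a median difference of -0.25, with 5 of 9 lower, and 0 of 9 in the smaller fit without the thyroid-rich arrays.

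Of 15 channels of the fibre membrane 10 fell and 2 rose, with a median of -0.64. Separated were 8 of the falls and neither rise, against 11.8% of all genes lower by the test and 4.52% also separated. Kcnma1, the large-conductance calcium-activated potassium channel, went from 10.06 to 10.72 in controls to 8.58 to 9.47 after injury, a difference of -1.33 ± 0.18 (adjusted p = 0.00082). Clcn1, the chloride channel that steadies the resting fibre, lay between 8.94 and 9.80 in controls and between 7.51 and 8.73 after injury (-1.30 ± 0.20). Scn4b, a sodium channel subunit, fell by 1.47 ± 0.28 on the log2 scale, and the inward rectifier Kcnj2 by 0.98 ± 0.12. Their injured arrays were all below their controls, in both muscles. Kcnn3, the small-conductance channel known from denervated muscle, rose (0.92 ± 0.17, adjusted p = 0.00263), and its nearest arrays overlapped by 0.04. Kcnq5, a potassium channel subunit, also rose with overlap (0.41 ± 0.12), but did not pass without the thyroid-rich arrays or with the squamous covariate. The main sodium channel Scn4a did not pass (-0.55 ± 0.19, adjusted p = 0.0511), but did with arrays centred on their medians or normalised again.

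In the calcium store, 9 of 17 genes fell and 1 rose, but without the thyroid-rich arrays, or with the squamous covariate, 1 fell and 1 rose. The gene that rose was Casq2, the calsequestrin of cardiac and slow fibres. It was at 9.07, 9.44 and 9.59 in PCA controls, 9.0, 8.03 and 9.01 in AC controls, 10.16, 10.55 and 10.76 in injured PCA and 10.24, 10.36 and 10.97 in injured AC. Injured arrays were all higher, by 1.48 ± 0.22 (adjusted p = 0.0011). Hrc, a histidine-rich protein of the same store, fell by 0.86 ± 0.17 on the log2 scale and was separated by 0.01. Ryr1, the release channel, fell with overlap (-0.43 ± 0.13, adjusted p = 0.0306), and was among those that did not pass in either alternative.

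Among the lists, energy metabolism held the densest shared falls. In the tricarboxylic acid cycle and pyruvate entry, 20 of 21 genes fell and 19 were separated, against 11.8% and 4.52% of all genes. The mean level of this list lay between 10.65 and 10.92 in the 6 controls and between 9.97 and 10.50 in the 6 injured arrays. Mdh1, the cytosolic malate dehydrogenase, was at 11.62, 11.65 and 11.62 in PCA controls, 11.49, 11.37 and 11.33 in AC controls, 10.14, 10.66 and 11.01 in injured PCA and 10.82, 10.68 and 10.77 in injured AC. The difference was -0.83 ± 0.13 (adjusted p = 0.00124), and PCA injury 3 again stood nearest to the controls. The pyruvate dehydrogenase subunits Pdhx, Pdha1 and Pdhb fell by 0.48, 0.67 and 0.68 on the log2 scale and Sdha, of succinate dehydrogenase, by 0.75. Citrate synthase (Cs, -0.41 ± 0.09) fell with no gap between the groups, and not past the test without the thyroid-rich arrays, and the cytosolic Idh1 did not pass (0.02 ± 0.07, adjusted p = 0.881).

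In oxidative phosphorylation 34 of 35 genes fell and 28 were separated, with a median of -0.50 and differences from -0.86 to -0.20. Ndufa9 of complex I (-0.64 ± 0.09), Uqcrc2 of complex III (-0.55 ± 0.09), Cox4i1 of complex IV (-0.49 ± 0.08) and Atp5mc1 of the ATP synthase (-0.86 ± 0.13) were separated. Without the thyroid-rich arrays 20 of the 35 fell, and none rose. Of 29 genes of fatty acid handling 24 fell, 13 of them without overlap, and 1, Cpt1a, rose (0.23 ± 0.06). Without the thyroid-rich arrays 14 fell and 0 rose. Fabp3, the fatty acid carrier of muscle, lay between 10.17 and 11.23 in controls and between 8.39 and 9.83 after injury (-1.58 ± 0.29). Acadm, which oxidises medium chains, fell from 10.58 to 11.13 in controls to 9.15 to 10.18, by 1.22 ± 0.17 on the log2 scale.

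Transcripts for glycolysis and glycogen use fell as well, in 22 of 26 genes, with 14 separated and a median of -0.70. In the fit without the thyroid-rich arrays 15 fell, and with the squamous covariate 18. Slc16a3, the lactate exporter of fast fibres, lay at 10.54, 10.30 and 10.40 in PCA controls, 9.92, 9.80 and 9.79 in AC controls, 8.68, 8.79 and 9.13 in injured PCA and 8.66, 9.01 and 8.71 in injured AC. Its groups were 0.66 apart although the PCA controls were above the AC controls, and the difference was -1.29 ± 0.11 (adjusted p = 0.000175). Pfkfb1, a regulator of phosphofructokinase (-1.50 ± 0.20), Phkg1, of phosphorylase kinase (-1.24 ± 0.17), Pfkm (-1.07 ± 0.19), the insulin-responsive glucose carrier Slc2a4 (-1.04 ± 0.18) and Ldha (-0.87 ± 0.12) were separated. Gapdh did not pass (-0.11 ± 0.04, adjusted p = 0.0773), although its injured arrays all lay 0.02 or more below the controls.

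Transcripts for the breakdown of branched-chain and other amino acids fell in 18 of 20 genes (14 without the thyroid-rich arrays, 16 with the squamous covariate). Of the 18, 14 were separated. Among them were Bckdhb of the branched-chain dehydrogenase (-0.91 ± 0.10), Adhfe1, a mitochondrial hydroxyacid transhydrogenase (-1.43 ± 0.17), and Got1, the cytosolic aspartate transaminase (-0.91 ± 0.16). Regulators of mitochondrial gene expression fell in 11 of 17, and in 7 with the squamous covariate. Perm1, a muscle regulator downstream of PGC-1, was at 9.21, 9.19 and 9.24 in PCA controls and 9.15, 8.81 and 8.65 in AC controls, and at 6.81, 6.97 and 7.79 in injured PCA and 7.65, 7.12 and 7.42 in injured AC. That left 0.86 between the groups, and the fall was -1.75 ± 0.18 (adjusted p = 0.000355). Ppara (-1.13 ± 0.18) and Ppargc1a, which encodes PGC-1 alpha (-0.90 ± 0.16), were separated. Tfam, the mitochondrial DNA factor, did not pass (-0.16 ± 0.08).

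**Figure D2:**
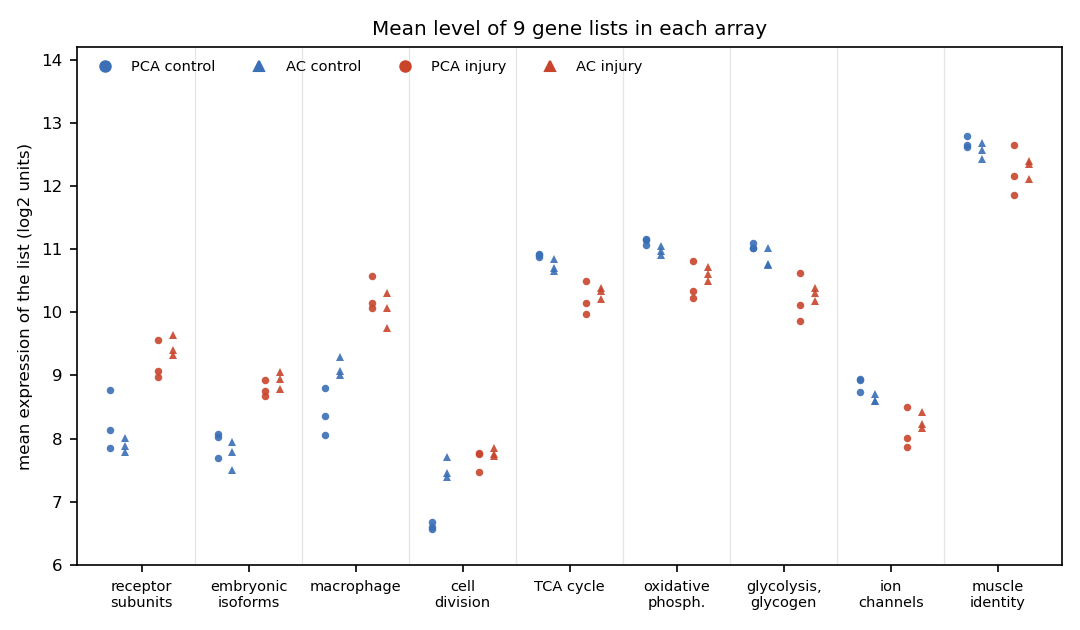
Mean expression (log2 units) of 9 gene lists on each array; circles are PCA and triangles AC, blue control and red injury. Injured and control arrays do not overlap for the receptor, embryonic isoform, macrophage, tricarboxylic acid (TCA) cycle, oxidative phosphorylation, glycolysis and ion channel lists, and they overlap for cell division (controls 6.57 to 7.71, injured 7.48 to 7.85) and muscle identity (controls 12.43 to 12.80, injured 11.86 to 12.65).

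In the plot of list levels PCA injury 3 is the injured array closest to the controls for the cycle, oxidative phosphorylation, glycolysis and ion channels, at 10.50, 10.80, 10.62 and 8.49. Its muscle marker level (12.65) was also the highest of the injured arrays and equal to that of PCA control 3. The part of muscle marker level in the metabolic falls was not tested.

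Growth control showed 1 large fall. Mstn, the secreted brake on muscle growth, lay at 10.27, 10.19 and 10.16 in PCA controls and 10.06, 10.11 and 9.80 in AC controls, and at 6.72, 7.40 and 8.96 in injured PCA and 8.36, 7.84 and 8.53 in injured AC. Controls were tight, injured arrays were spread and all lower by 0.84 or more, and the difference was -2.13 ± 0.31 (adjusted p = 0.00105). Its receptor Acvr2b fell too (-0.32 ± 0.09), though not past the test without the thyroid-rich arrays. The growth factors Igf1 (0.54 ± 0.10) and Igf2 (0.93 ± 0.19) rose, each with 0.02 between the groups. Over 20 genes of this axis 5 rose and 5 fell (50.0%, against 23.9% of all genes), and 4 and 2 did so without the thyroid-rich arrays.

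The ubiquitin ligases best known from atrophy were lower at this time. Trim63 (MuRF1, -0.83 ± 0.17, adjusted p = 0.00408) and Fbxo32 (atrogin-1, -0.56 ± 0.13, adjusted p = 0.00803) fell with overlapping arrays, and Fbxo32 did not pass without the thyroid-rich arrays. The glucocorticoid-responsive factor Klf15 fell without overlap (-0.66 ± 0.09), as did Mul1 and Fbxo21, of which Mul1 did not pass without the thyroid-rich arrays. Of 16 genes of this list 7 fell and 0 rose (43.8%, against 23.9% of all genes), and 4 fell without the thyroid-rich arrays. Of 32 proteasome subunits and activators 3 rose and 1 fell (12.5%, against 23.9% of all genes). The 3 that rose, all separated, were the immunoproteasome subunits Psmb8 (0.48 ± 0.08), Psmb9 (0.45 ± 0.08) and Psmb10 (0.30 ± 0.06).

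Cell cycle arrest and stress genes divided. Cdkn1a, the p21 inhibitor of the cell cycle, lay between 9.53 and 10.45 in controls and between 10.84 and 11.45 after injury. The rise of 1.09 ± 0.14 (adjusted p = 0.00082) was nearly the same in PCA (1.10) and AC (1.09). Gadd45a also rose (1.02 ± 0.14), whereas Gadd45g fell (-0.61 ± 0.09), and both were separated. Of 23 genes of the integrated stress response 8 fell and 1 rose (39.1%, against 23.9% of all genes), and without the thyroid-rich arrays 3 fell and 1 rose. Atf3 rose (0.89 ± 0.13) and Atf4 fell (-0.37 ± 0.06), each without overlap. The polyamine enzymes held no separated gene among 10, against 9.95% of all genes. By the test 1 was higher and 3 lower (40.0%, against 23.9% of all genes), and none without the thyroid-rich arrays.

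Of 22 macrophage and phagocyte genes 21 rose and 20 were separated, with a median of 1.40. Lilrb4, an inhibitory receptor of myeloid cells, lay at 6.74, 6.97 and 6.37 in PCA controls and 6.61, 6.76 and 7.57 in AC controls, and at 11.05, 10.45 and 9.70 in injured PCA and 8.46, 9.97 and 10.02 in injured AC. AC injury 1 was the lowest injured array, still 0.89 above the highest control, and the rise was 3.10 ± 0.35 (adjusted p = 0.000492). Gpnmb, a glycoprotein of phagocytes (2.80 ± 0.40), and the lysosomal marker Cd68 (2.02 ± 0.28) had AC controls above PCA controls: 9.63 to 10.43 against 7.90 to 9.16 for Gpnmb, and 8.87 to 9.27 against 7.79 to 8.59 for Cd68. The list's mean differed in the same way, 8.06 to 8.80 in PCA controls and 9.01 to 9.30 in AC controls, and reached 9.75 to 10.57 after injury. Cd163, a scavenger receptor of resident macrophages, did not pass (0.27 ± 0.17, adjusted p = 0.306).

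Of 30 chemokines, cytokines and their receptors 21 rose (17 without the thyroid-rich arrays, 15 with the squamous covariate) and 13 were separated. Ccl2, which attracts monocytes, rose by 1.94 ± 0.28 from controls of 9.0 to 10.47, and its receptor Ccr2 by 1.18 ± 0.19. Il1b was at 6.55, 7.08 and 6.65 in PCA controls, 6.60, 6.40 and 6.36 in AC controls, 9.23, 7.73 and 8.18 in injured PCA and 7.33, 9.15 and 8.05 in injured AC. Its injured arrays were all higher and widely spread, and the difference was 1.67 ± 0.29 (adjusted p = 0.00235). Tnfrsf12a, the Tweak receptor of stressed muscle, rose by 0.80 ± 0.09, with 0.75 in PCA and 0.84 in AC. Cxcl6, a neutrophil attractant, rose by 2.45 ± 0.48, with injured arrays from 6.23 to 9.69. Of 11 neutrophil and red cell markers 0 rose and 4 fell (2 without the thyroid-rich arrays), and their mean was 7.87 to 8.69 in AC controls against 6.26 to 7.23 on the other arrays. Tnf did not pass (0.22 ± 0.11, adjusted p = 0.18).

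Transcripts of matrix proteases and their inhibitors were mostly higher after injury, with a median difference of 1.10 in PCA and 0.625 in AC. Of 16 proteases and inhibitors 13 rose and 9 were separated. With the squamous covariate 9 rose, and without the thyroid-rich arrays 12 rose and 1 fell. Mmp12, the macrophage elastase, had the largest rise of the shared genes (3.43 ± 0.49, 10.8-fold, adjusted p = 0.000996). It lay between 6.90 and 8.03 in controls, at 11.81, 11.59 and 10.94 in injured PCA and at 8.30, 9.80 and 11.07 in injured AC. AC injury 1 came within 0.27 of the highest control, AC control 3. Timp1, the inhibitor of metalloproteinases, rose by 1.5 ± 0.18, the aggrecanase Adamts4 by 1.21 ± 0.14 and urokinase, Plau, by 0.77 ± 0.09.

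Collagens and other matrix genes rose in 17 of 23 (13 without the thyroid-rich arrays, 16 with the squamous covariate). Only 4 of the 17 were separated: Postn (1.43 ± 0.24), the crosslinking enzyme Lox (1.00 ± 0.17), Bgn (0.42 ± 0.08) and Col5a3 (0.56 ± 0.11). Col1a1 (0.75 ± 0.14) and Col3a1 (0.72 ± 0.15) rose with overlap of 0.10 and 0.02. Fmod, the tendon proteoglycan fibromodulin, fell without overlap (-0.90 ± 0.18). Among fibroblast markers 7 of 9 rose, including Cthrc1 (2.12 ± 0.30), Thy1 (1.43 ± 0.21) and Fap (0.73 ± 0.14), all separated. Dcn (0.15) and Pi16 (-0.30) did not pass. Without the thyroid-rich arrays 6 markers of this list rose and 1 fell, and likewise with the squamous covariate. The fibronectin receptor genes Itga5 (0.80 ± 0.12) and Itgb1 (0.45 ± 0.07) were separated as well. Of 22 lysosome and autophagy genes 10 rose, 5 of them without overlap, 1 fell and 11 did not pass, with a median of 0.14. The rises numbered 8 without the thyroid-rich arrays and 7 with the squamous covariate. The proteases Lgmn (1.32 ± 0.16) and Ctss (0.81 ± 0.12) and the cholesterol carrier Npc2 (0.69 ± 0.12) were among those separated. The mitophagy gene Bnip3 fell (-0.65 ± 0.12), and Atg5 (0.02 ± 0.05), Becn1 (-0.04 ± 0.06) and Ulk1 (-0.16 ± 0.08) did not pass.

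Cell division genes passed the test without being shared in the sense used here. Of 25 genes 22 rose, 14 without the thyroid-rich arrays, but 2, Mcm2 and Aurka, were separated. The list's mean was 6.57 to 6.68 in PCA controls, already 7.39 to 7.71 in AC controls, and 7.48 to 7.85 in the injured arrays of both muscles. The median difference was 0.97 in PCA and 0.25 in AC, and 4 members passed the test of the difference between muscles. Squamous markers were low in the same PCA controls, and with their level as a covariate 13 of the 25 genes rose. Aurka passed neither with that covariate nor without the thyroid-rich arrays.

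Of 8 myelin genes of Schwann cells, which wrap the axons, 5 fell, and Prx, S100b, Sox10 and Drp2 were separated. S100b fell by 0.69 ± 0.13 and Sox10, the lineage factor, by 0.38 ± 0.07 on the log2 scale. The myelin protein gene Mbp did not pass (-0.29 ± 0.10, adjusted p = 0.06). Of 12 injury genes of Schwann cells, Ncam1, Atf3 and Ngfr (0.39 ± 0.07) rose and Sox2 fell (-0.45 ± 0.13), with a median of 0.00 and 33.3% past the test, against 23.9% of all genes. The fall of Sox2 did not pass when any of 6 single arrays was left out. Of 25 neurotrophic and guidance genes 5 rose and 5 fell (40.0%, against 23.9% of all genes), with a median of -0.04. Muscle-derived Ntf3 (-0.45 ± 0.08), the ephrin receptor Epha7 (-0.67 ± 0.11) and Fgf2 (-0.62 ± 0.14) fell, and Igf1, Mdk (0.82 ± 0.16) and Ptn (0.45 ± 0.12) rose, all without overlap. Fgf2, Ptn and the myelin gene Prx did not pass without the thyroid-rich arrays, where 2 of the 25 genes rose and 5 fell. Bdnf (0.21 ± 0.07, adjusted p = 0.0591) and Cntf (-0.24 ± 0.09, adjusted p = 0.072) did not pass.

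Some markers of other tissues met the rule, as did 9.95% of all genes. Of 8 squamous markers 0 passed, although their median difference was 1.61 (3.62 in PCA, -0.35 in AC). None of 10 thyroid and parathyroid markers, none of 5 endothelial markers and none of 14 adipocyte markers was separated. Of the adipocyte markers 3 fell (21.4%, against 11.8% of all genes), with 0 under the squamous covariate and 4 without the thyroid-rich arrays. These were Ucp1 (-1.69 ± 0.56), Pck1 (-1.27 ± 0.31) and Pnpla2 (-0.44 ± 0.11). The median of the adipocyte list was -0.65 in PCA and 0.03 in AC. Of 8 airway epithelium markers 4 fell (50.0%, against 11.8% of all genes), with 4 also under the squamous covariate and 3 without the thyroid-rich arrays. These were Scgb1a1 (-0.39 ± 0.11), Bpifa1 (-0.62 ± 0.14), Sec14l3 (-1.05 ± 0.32) and Cyp2a3. The calls of Ucp1, Scgb1a1 and Sec14l3 were lost when some single arrays were left out. Cyp2a3, an airway cytochrome, fell without overlap (-1.47 ± 0.25), from 8.26 to 9.55 in controls to 6.45 to 7.82. Cartilage markers fell in 7 of 12 (1 without the thyroid-rich arrays or with the squamous covariate), and Chad was separated by 0.03. Their median was -1.43 in PCA and -0.18 in AC, so most of the cartilage fall lay in PCA. Of 10 lymphocyte markers Cd4 (0.83 ± 0.17), which rat macrophages also carry, and Cd2 (0.23 ± 0.06) were separated, Cd2 not passing with the squamous covariate or without the thyroid-rich arrays, and the T cell genes Cd3e, Cd3g and Cd3d did not pass.

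**Figure D3:**
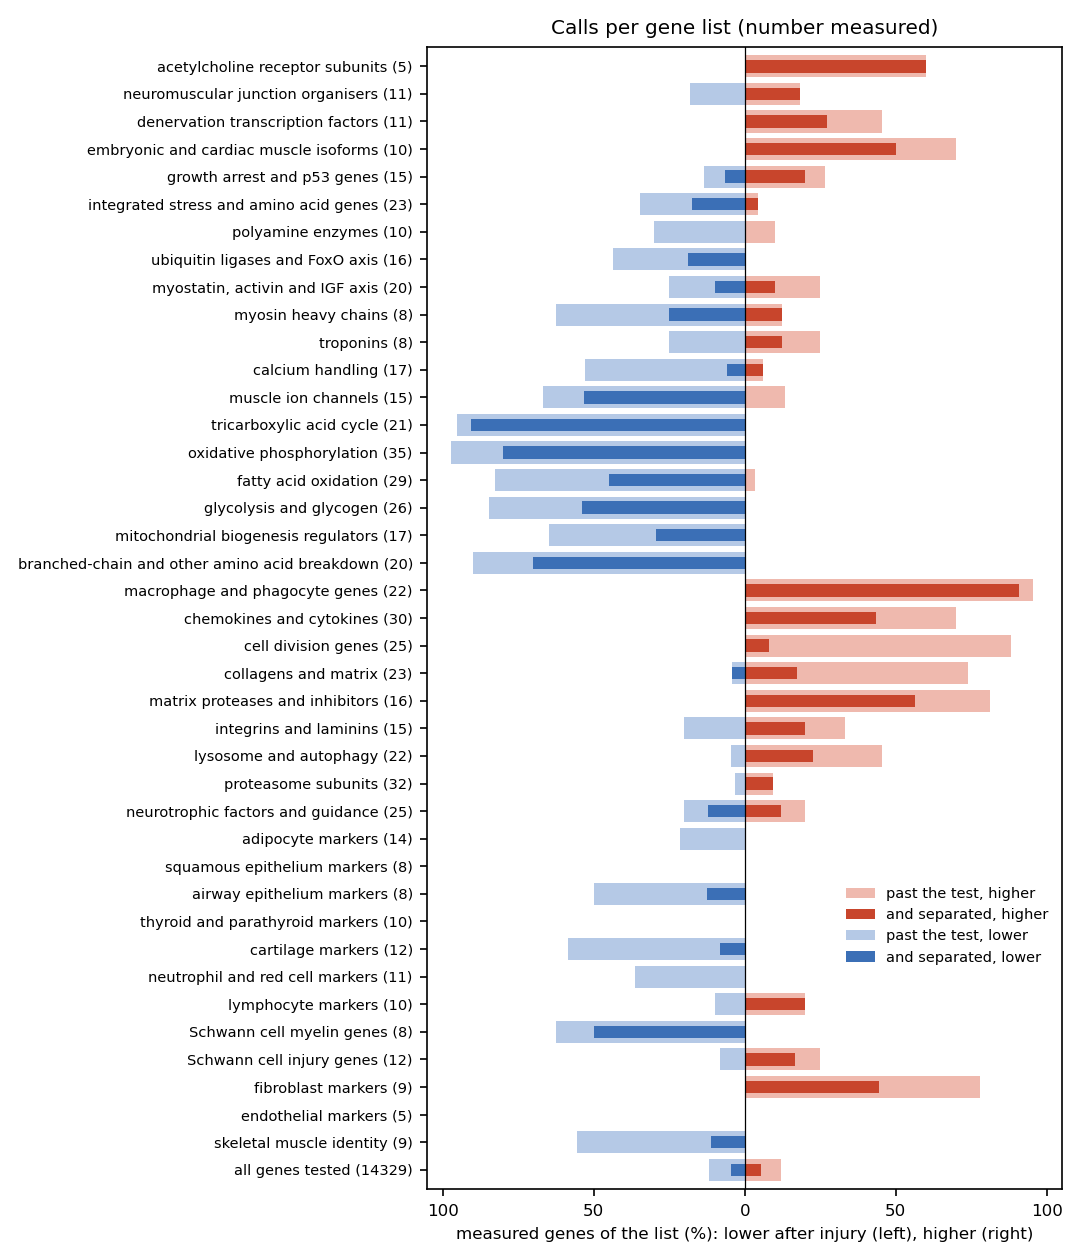
Share of the measured genes of each list (%) that passed the limma test (pale) and that were also separated (dark), lower after injury to the left in blue and higher to the right in red; the bottom bar holds all 14329 genes. The dark, separated part reaches furthest for the tricarboxylic acid cycle to the left (19 of 21) and the macrophage list to the right (20 of 22), and cell division has a long pale bar with a short dark one (22 and 2 of 25).

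Fitted within each muscle, the same model family called 3697 genes in PCA (25.8%) and 274 in AC (1.91%). Of the 778 shared rises 696 passed within PCA, 138 within AC, 130 in both and 74 in neither. Of the 648 shared falls the counts were 602, 86, 83 and 43. The median rise was 0.65 in PCA and 0.44 in AC, and the median fall -0.64 in PCA and -0.40 in AC. PCA had the larger difference in 630 of the rises and 573 of the falls, and AC in 144 and 71. Over all 14329 genes, called or not, PCA had the larger difference in 9243. The leaning to PCA was thus present over all genes too, but in a smaller share of them than of the shared genes. No shared gene passed the test of the difference between muscles, which called 22 of all genes (0.154%). That count rose to 406 without PCA control 2 and to 348 with array weights, and it fell to 0 without the 3 thyroid-rich arrays. The lowest adjusted p among shared genes was 0.0537, for the galectin Lgals3 (2.18 ± 0.19 in PCA, 0.58 ± 0.19 in AC), and 0.0542 for Fmod (-1.45 ± 0.14 and -0.35 ± 0.14). Without adjustment 196 of the 778 rises and 122 of the 648 falls had p under 0.05 in that test. The same count was not taken over all genes, so it does not set shared genes apart from others. A gene that misses the test of the difference is not shown to respond alike in both muscles.

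**Figure D4:**
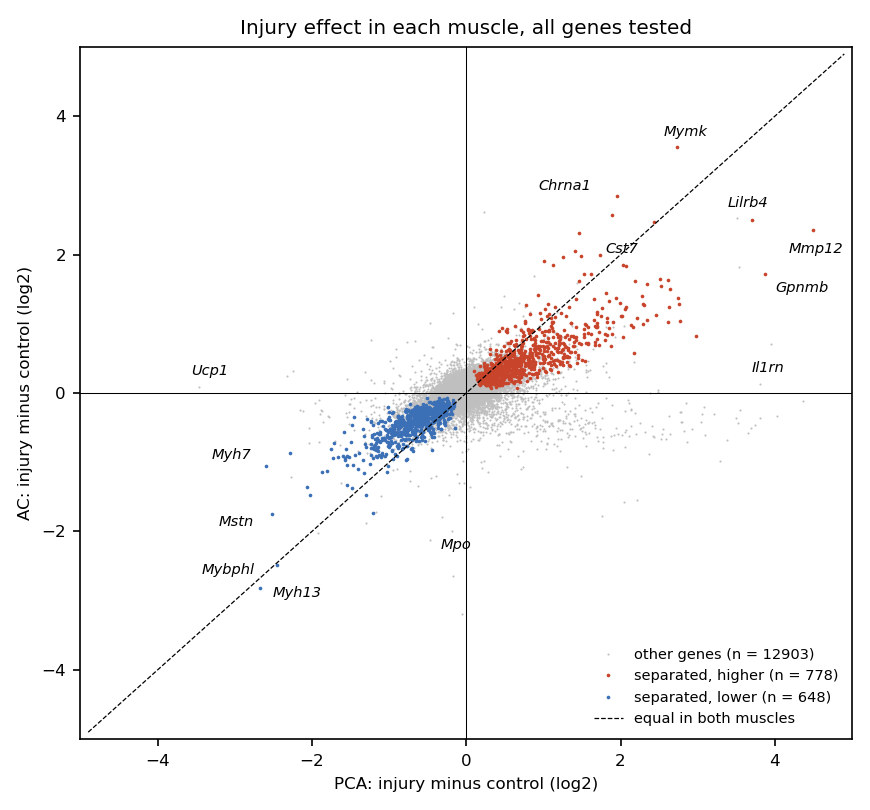
Injury difference in AC against that in PCA (log2, injury minus control) for all genes tested; shared rises are red, shared falls blue, other genes grey, and the dashed line marks equal differences. Mymk and Chrna1 lie above the line, Mmp12 (4.50 in PCA, 2.35 in AC) and Gpnmb (3.87 and 1.73) below it, and Mybphl (-2.45 and -2.49) on it.

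Near-equal means in the plot of differences by muscle do not show equal responses, since arrays within a group spread widely for some of these genes. Among shared genes changed at least 2-fold, those with the smallest difference between muscles that rose included Cxcl6 (2.43 in PCA, 2.47 in AC), Prnd (1.42 and 1.35), Mybph (1.23 and 1.15), Sox11 (1.07 and 1.14) and Cdkn1a. The corresponding falls included Mybphl, Myh13 (-2.67 and -2.82), Asb11, a muscle ubiquitin ligase subunit (-1.55 and -1.33, not past the test without the thyroid-rich arrays), and Adhfe1 (-1.48 and -1.38). The 10 shared rises with the largest difference between muscles were Mmp12, Gpnmb, the lectin-like Clec2dl1 (2.97 and 0.83), the haem oxygenase Hmox1 (2.78 and 1.04), Lgals3, the integrin Itgam of myeloid cells (2.62 and 1.03), Cd68, Ccl2, Ccl9 and the phagocyte receptor Trem2 (2.46 and 1.12). Among the falls, Myh7 (-2.60 and -1.05) and Fabp3 (-2.29 and -0.87) had the largest.

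Shared genes were mostly well expressed, in particular those that fell. The median control level was 8.24 for the rises and 9.08 for the falls, against 7.79 over all genes, and 60.9% and 85.5% of them lay above that median. Sizes were modest: the median rise was 0.54 and the median fall -0.51, and 129 rises and 46 falls reached 2-fold. In 71 rises and 19 falls the change was at least 2-fold in each muscle alone. The gap between injured and control arrays was 0.1 or less in 377 rises and 366 falls, and above 0.5 in 36 rises and 13 falls.

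Many genes stood near the border of the rule. Just inside it, with gaps of 0.01, were Aig1 (0.48), Acp2 and Arhgap4 among the rises and Atmin (-0.20), Acer2 and Adamtsl3 among the falls. Just outside, with the nearest arrays at equal values, were Actr3 (0.65), Agmat and Afap1, and Anks6 (-0.18), Abtb2 and Asb16. Another 1996 genes passed the test with overlapping arrays, and 20 were separated without passing it. Of the overlapping genes, 262 that rose and 319 that fell were separated within each muscle taken alone, the muscles standing at different levels. Over all genes tested, 2075 (14.5%) were separated within each muscle in the same direction, the shared genes among them.

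Some genes with large differences missed the rule. Tnn, the matrix protein tenascin-N, rose by 3.02 ± 0.51, but AC control 3 (10.12) lay above AC injury 1 (9.92). Lrrc15, a marker of activated fibroblasts, rose by 2.68 ± 0.42, and the same pair of arrays overlapped (9.29 and 9.18). Mmp9 rose by 2.33 ± 0.55, with PCA controls at 5.20 to 5.55 and AC controls already at 7.97 to 8.4, and did not pass without the thyroid-rich arrays. The slow light chain Myl2 fell by 1.39 ± 0.25 on the log2 scale and missed separation by 0.05.

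Some shared genes are neighbours in the genome. With the 14292 genes placed in GRCr8 gene order, 225 of the 1420 placed shared genes (144 rises, 81 falls) lay in 106 runs of at least 2 adjacent tested genes that moved the same way. Shared rises were 5.43% and shared falls 4.52% of all genes, so some runs would form at that density alone. How many was not computed, and the count does not show clustering. Of these, 10 runs held 3 genes or more. The longest, on chromosome 4, held 5 C-type lectin receptors of myeloid cells: Clec4a1 (1.46 ± 0.18), Clec4a3 (2.07 ± 0.23), Clec4a2 (1.90 ± 0.20), Clec4a (0.89 ± 0.16) and Clec4b2 (0.66 ± 0.09). A run of 4 on chromosome 20 held the class II antigen presentation genes RT1-Da (0.97 ± 0.12), RT1-Db1 (0.84 ± 0.12), RT1-Ba (0.76 ± 0.11) and RT1-Bb (0.62 ± 0.09). The chemokine genes Ccl9, Ccl6 and Ccl3 formed a run on chromosome 10 (2.06, 0.67 and 1.65). Among the falls, Ntf3, Kcna5 and Kcna1 were adjacent on chromosome 4 (-0.45, -0.64 and -0.97). Genes of near-identical families may share probe sequence, so members of such runs are not independent of each other.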

How the data were processed

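From 30 to 50 mg of each muscle specimen, 100 ng of total RNA was labelled with biotin for Affymetrix arrays that probe whole transcripts, per the labels' protocols. The authors deposited log2 expression values, 1 per probe set and array. The submitters' processing notes name RMA and Partek, with neither versions nor roles. That the base is 2 was inferred from RMA and from the values, which run from 2.57 to 14.04. RMA gives all arrays one distribution (medians 7.11 to 7.17), so every change is relative to the rest of the array. For the background step and the annotation build, the method was not given in the sources used here. The precision is set by the number of arrays.

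Of 27342 probe sets, 15103 carry 1 gene symbol, 317 several and 11922 none, and the first kind was tested. Symbols were checked by gene ID against RefSeq GRCr8 (15067 matched, 36 kept their annotated name). For 500 genes with several probe sets the brightest was used, which gave 14329 genes. Array correlations ran from 0.964 to 0.995, and no array was a copy of another.

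limma 3.58.1 (R 4.3.3) fitted muscle and injury as additive terms (lmFit, eBayes; 9 residual degrees of freedom). Its test was 2-sided, and p-values were adjusted by Benjamini-Hochberg across the 14329 genes, with 0.05 as the threshold. A fit with 4 group means gave the effect in each muscle and their difference. The fits were tested on simulated data. Alternatives changed the model, normalisation, filters, probe sets, prior, weights, threshold, covariate and arrays. Python 3.11.15 and matplotlib 3.10.9 drew the plots.

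The comparison, the rule for shared genes and all 40 gene lists were chosen with earlier results of these data known. No list was tested as a set. Named by rule were, among shared genes, the 20 largest each way, and the 10 each way with the widest gap, with the largest smaller effect of both muscles, with the largest difference between muscles and, among those changed 2-fold, with the smallest. The rule also takes the 3 nearest the border on either side, the 10 largest with overlap and, of each list, the separated members, the 3 with the smallest p and the first, or all members of lists of 12 or fewer. Other named genes, among them the neighbour runs and many list members that did not pass, were chosen after their values were seen.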

Additional observations from a re-analysis of the deposited data

Results flagged for a closer look

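For 7 genes of the naming rule or the gene lists, out of the 22 called among all genes, the injury effect differed between the muscles by limma's test of that difference. None of the 7 had separated arrays. The difference, AC effect minus PCA effect, was -3.68 for Il1rn, the interleukin-1 receptor antagonist, which rose by 3.80 in PCA and differed by 0.13 in AC. It was 3.55 for the brown-fat gene Ucp1 (-3.46 in PCA, 0.09 in AC) and 2.00 for the slow troponin Tnnc1 (-1.23 in PCA, 0.77 in AC). For the cell division genes it was -1.37 for Ccna2, -1.34 for Top2a, -1.32 for Kif23 and -1.25 for Nusap1, whose mean was 7.68 to 8.29 in AC controls and 6.28 to 6.74 in PCA controls.

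Among the 11922 probe sets without a gene symbol, which entered no comparison, all injured arrays lay above all controls in 220 and below them in 288, together 4.26%, against 10.1% of the named genes.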

How the results depend on the processing

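Of the 1426 shared genes, 0 changed sign in the alternatives where they were refitted. Separation fixes the sign in every fit that only drops or reweights arrays or alters the muscle term, so there this is no check. The filters on level kept 1410 and 1253 of them, and signs were not counted for the fit of all probe sets. A stricter adjusted p of 0.01 left 890 genes higher and 772 lower (1731 and 1691 as reported), the squamous covariate 1128 and 979, and leaving out the 3 thyroid-rich arrays 1077 and 960. The other fits of the full set stayed within 1.5 times. Leaving out each array in turn gave 1331 to 1724 higher and 1220 to 1683 lower, and 780 to 964 and 629 to 908 with separated arrays.

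The 22 genes whose effect differed between muscles depended on the fit. Their number was 39 after quantile normalisation again, 56 among genes above the median level, 84 over all probe sets and 348 with array weights. It was 1 with an ordinary linear model or the squamous covariate, and 0 at an adjusted p of 0.01 or without the 3 thyroid-rich arrays. Leaving out each array gave 0 to 406, the highest without PCA control 2. The cause was not tested.

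Replicate numbers are shared by the groups, and the labels do not say whether same-numbered arrays share an animal. Only PCA and AC arrays of the same surgery group could come from the same rat. Among these, correlations of same-numbered deviations from the group means ran from -0.39 to 0.34, and those of different numbers from -0.62 to 0.49. With 3 arrays per group these values cannot tell whether the arrays are paired. With the replicate number as a block 1507 genes were higher and 1432 lower, 770 and 634 of them separated, and 0 differed between muscles. That block also joins control and injured rats under the same number, so it does not model shared animals alone.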
